A study of Homo sapiens with 8 samples.

Results

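Glutathione transferases were examined in FT293 cells, a human embryonic kidney (HEK293) line with the Flp-In T-REx system, that express GFP, GFP-HuR, GFP-TIA1 or GFP-TIAR from a single integration site under tetracycline control. They are 9 of the 36337 gene names on the array, namely GSTP1, GSTM2, GSTM3, GSTM4, GSTO1, GSTK1, MGST1, MGST2 and MGST3, and are read by 13 of the 50599 probes. They were chosen from measured values: GSTP1 was selected for a signal close to background in the GFP line and high in the other 3 lines, and the relatives were picked to stand beside it. Values of members in comparisons with the GFP line are a description and support nothing, and differences of members are tested between the HuR, TIA1 and TIAR lines.

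Every line carries the GFP tag and received tetracycline, so the GFP line differs from the others in the protein fused to GFP. RNA was taken 3 days after tetracycline was added, per the methods, and hybridised to 8 one-colour arrays, 2 per line. The source label of the second TIA1 array reads GFP-TIA2, while its title and genotype read GFP-TIA1, which were followed. Each line is a single stable line, so a difference between lines includes whatever else distinguishes one line from the next. HuR, TIA1 and TIAR are RNA-binding proteins that regulate splicing, stability and translation of their target transcripts.

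Glutathione transferases join the tripeptide glutathione to electrophilic compounds, which makes them more soluble and ready for export. The cytosolic enzymes fall into classes named by Greek letters, among them pi (GSTP1), mu (the GSTM genes, which lie side by side in 1 cluster) and omega (GSTO1). GSTK1 is the kappa-class enzyme of mitochondria and peroxisomes, and MGST1, MGST2 and MGST3 are membrane proteins of an unrelated family. GSTP1 is studied in epithelial tumours, some of which lose it and others of which overexpress it.

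The probe letters show what each reading rests on, and they are given 5′ to 3′ from the scanner files with their hg19 positions. The GSTP1 probe lies at chr11:67354050-67354109, is printed on the array 10 times and ends at a polyadenylation hexamer, set in capitals in its last 30 bases below. The leading GSTM2 probe has 60 bases over a span of 150 bases at chr1:110213977-110214126, so it crosses an exon junction, whereas the second GSTM2 probe lies within one stretch at chr1:110212103-110212162. The GSTM4 probe lies at chr1:110201628-110201686, and the capitals in it and in the leading GSTM2 probe mark the bases they share when placed side by side without gaps: 21 of 27 overlapping bases. The MGST1 probe, for the only member that passed the test between the TIA1 and TIAR lines, lies at chr12:16516907-16516966 and is shown whole.
GSTP1 (last 30 bases): tttgccttcctttctccaggaccAATAAAa
GSTM2 (leading probe): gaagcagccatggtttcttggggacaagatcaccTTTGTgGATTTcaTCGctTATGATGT
GSTM4: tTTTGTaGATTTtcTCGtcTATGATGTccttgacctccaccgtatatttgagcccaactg
GSTM2 (second probe): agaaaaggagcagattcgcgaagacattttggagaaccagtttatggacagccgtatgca
MGST1: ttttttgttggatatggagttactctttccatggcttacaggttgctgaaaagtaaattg
Because the mu-class genes are close copies of each other, readings of GSTM2 and GSTM4 may include signal from a paralog.

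Signals are given as processed intensities, which are background-subtracted, and as log2 signals, in which the 75th percentile of each array is set to 0. The first GFP array stood apart: 86% of its probes were well above background, the scanner's call that a spot is brighter than its surroundings, against 53.2% to 58.5% on the other 7 arrays. Its mean local background was 83.2 against 35.7 to 41.5, and the correlation between the 2 GFP arrays was 0.947 against 0.993 to 0.997 in the other lines. Intensities are therefore given array by array for most members, and the count of separated member probes also without GFP 1. Line means and differences of GFP, those of the neighbours of GSTP1 included, use both GFP arrays unless said otherwise. Of the 10 features chosen as typical of HEK293 cells, such as KRT8, KRT18 and VIM, 8 to 9 were well above background on every array. On the 7 arrays other than GFP 1, markers of other cells well above background numbered 2 to 4 of 5 for blood cells, 1 to 3 of 6 for fibroblasts, 2 to 4 of 5 for hepatocytes and 2 to 3 of 3 for endothelium, and their part in the results was not tested. Of the transgenes, one TIAL1 probe (the gene of TIAR) read 4.93 (log2) in the TIAR line against 1.68 to 2.49 in the others, and the second read -3.98 against -4.17 to -3.57. Neither the ELAVL1 probe (HuR) nor the TIA1 probes were highest in their own line, and whether these probes lie within the transgenes was not tested. Among the 13 member probes, 9 were well above background on all 8 arrays, and the GSTM4 probe and the third MGST3 probe on none.

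GSTP1, which conjugates glutathione to a broad range of electrophiles, was nearly absent from the GFP-expressing cells and abundant in the other lines. Its processed intensity was 193 and 70.0 on the GFP arrays, 34046 and 33477 on the HuR arrays, 19919 and 19722 on the TIA1 arrays, and 17746 and 18517 on the TIAR arrays. Both GFP arrays lay far below the other 6, and the arrays of no pair of lines overlapped. Mean log2 signals were -3.67 ± 0.83 in GFP, 4.38 ± 0.08 in HuR, 3.99 ± 0.06 in TIA1 and 3.75 ± 0.11 in TIAR (SD, n = 2). The GFP line was lower by 8.05 on the log2 scale than HuR (266-fold), by 7.66 than TIA1 (203-fold) and by 7.41 than TIAR (171-fold, or 95.8-fold with normexp background correction). These differences are those that chose the gene.

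**Figure D1:**
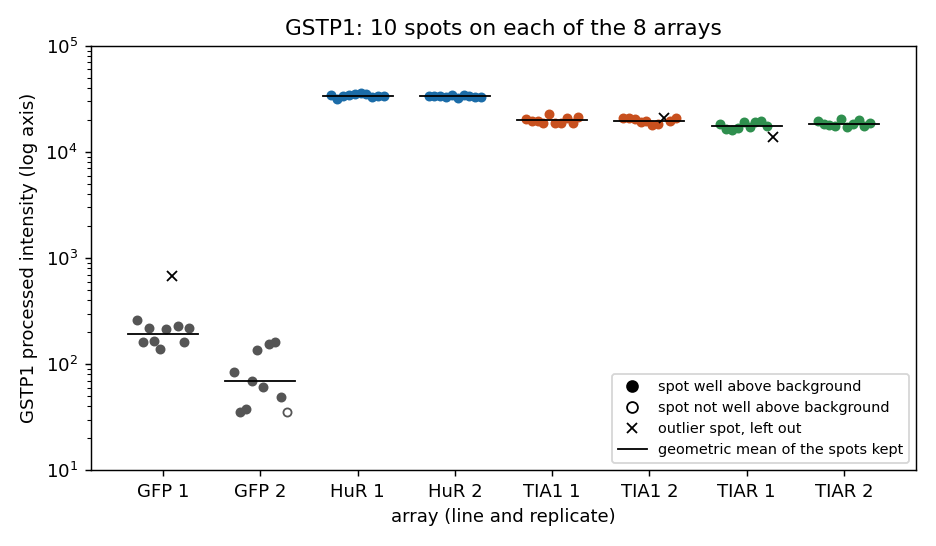
Processed intensity (log axis) of each of the 10 GSTP1 spots on each of the 8 arrays, with the geometric mean of the spots kept as a bar, spots not well above background open and spots left out as outliers crossed. The GFP spots kept lie between 35.3 and 262, and the array means of the other 3 lines lie between 17746 and 34046.

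The spots of the probe gave the same picture throughout each array. On GFP 1 the 9 spots kept ranged from 140 to 262, with 1 further spot left out as an outlier at 683. On GFP 2 the 10 spots ranged from 35.3 to 162, and 9 of them were well above background. Residual signal was thus read on both GFP arrays, but at a level where single spots of GFP 2 scattered by 0.87 (SD, log2).

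The 5 named genes whose log2 signals, centred on their own mean, lay nearest to those of GSTP1 over the 8 arrays were ZNF738, LSAMP, PTCHD1, LUM and SDIM1. Their root mean square distances were 1.37 to 1.96 among 14635 genes compared, all well above background on the 6 HuR, TIA1 and TIAR arrays. On GFP 2 each of the 5 read between -7.60 and -6.08 (log2), below the weakest signal called well above background there (-5.48), so no fold is given for them. LUM, a matrix proteoglycan that is also on the fibroblast list, read 33.4 and 19.8 in GFP, 504 and 508 in HuR, 145 and 106 in TIA1, and 548 and 393 in TIAR, and was not well above background on GFP 2. The summed intensity of the 6 fibroblast genes ran from 248 to 4451 over the GFP arrays, against 581 to 1338 on the other 6. Of these genes, 4 were well above background on GFP 1 and 1 on GFP 2. The part of these sums in the values was not tested.

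Genes around GSTP1 did not share its pattern. Within 250 kb of the GSTP1 probe there were 26 other named genes, and 15 of them were well above background on all 8 arrays. For those 15, the largest difference of any line over GFP was 0.93 (log2, CLCF1 in TIA1), and the smallest of the 3 differences ranged from -2.75 (PTPRCAP) to 0.14 (NDUFV1). NDUFV1, a subunit of respiratory complex I and the nearest of these 15, had a mean log2 signal of 5.04 in GFP, 5.25 in HuR, 5.25 in TIA1 and 5.18 in TIAR. Among these 15, PTPRCAP and FAM86C2P were the furthest above the other lines in GFP, by up to 2.75 and 2.50, and both means include the first GFP array. The filter on all 8 arrays leaves out any neighbour lost in GFP. The neighbours left out exceeded GFP by at most 0.97 (XLOC_009180 in TIA1, which was well above background on no array).

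**Figure D2:**
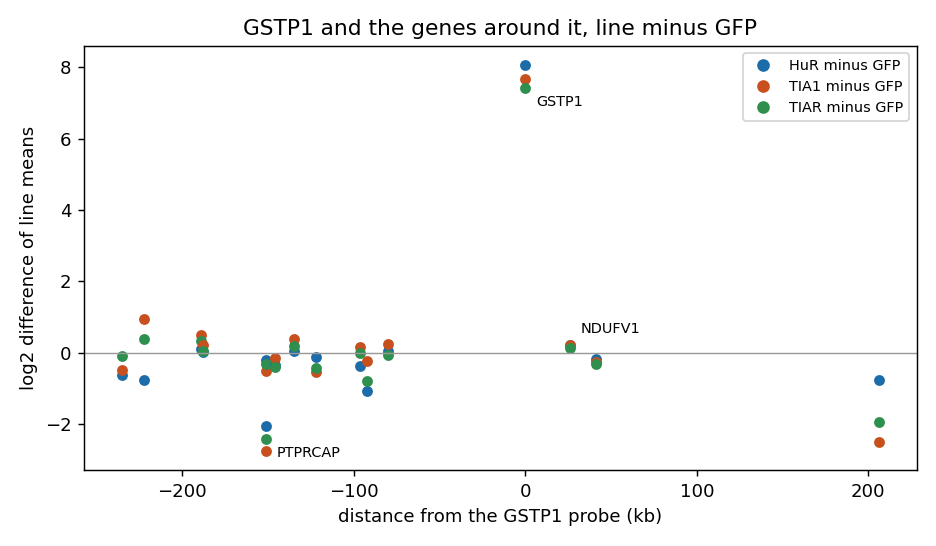
Log2 difference of line means, each line minus GFP, for GSTP1 and for the 15 neighbouring genes well above background on all 8 arrays, plotted against the distance from the GSTP1 probe in kb. GSTP1 stands at 7.41 to 8.05, and no neighbour exceeds 0.93.

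Between the 3 lines that carry it, GSTP1 was highest in HuR, then TIA1, then TIAR, and the arrays of neighbouring lines did not overlap. It was lower in TIA1 than in HuR by 0.39 (log2, SE 0.10, limma adjusted p = 0.0407) and lower in TIAR than in HuR by 0.64 (SE 0.11, adjusted p = 0.0223). TIAR and TIA1 differed by -0.25 (95% confidence interval -0.57 to 0.08, adjusted p = 0.306). The first of these differences lost significance under 10 of 15 alternative settings and the second under 7.

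The relatives were next compared with the level of GSTP1, since a family member that is high where another is low would be visible as a rise in the GFP line. Counted were the 10 member probes that both arrays of 1 line or more read well above background. On both GFP arrays, 1 of these lay above all 6 other arrays (9.83% of all probes did), 1 lay below (10.8% of all probes did), and 8 did neither. The probe above was that of MGST1, and the probe below was that of GSTP1. Of the 9 relatives' probes, 8 were thus not separated in the GFP line, as most probes on the array were not. This count therefore does not set the relatives apart. Under other scalings GSTM3 and GSTO1 joined MGST1 above all others. Without GFP 1, 2 probes lay above (GSTM3 and MGST1) and 1 below (GSTP1). Without GFP 2 the count of separated probes was 7, with 2 above (GSTM2 and MGST1) and 5 below (GSTP1, GSTM3, GSTO1 and 2 MGST3 probes). These runs were counted for member probes only, with no share over all probes beside them. The position of these relatives thus depends on the arrays and scaling used.

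**Figure D3:**
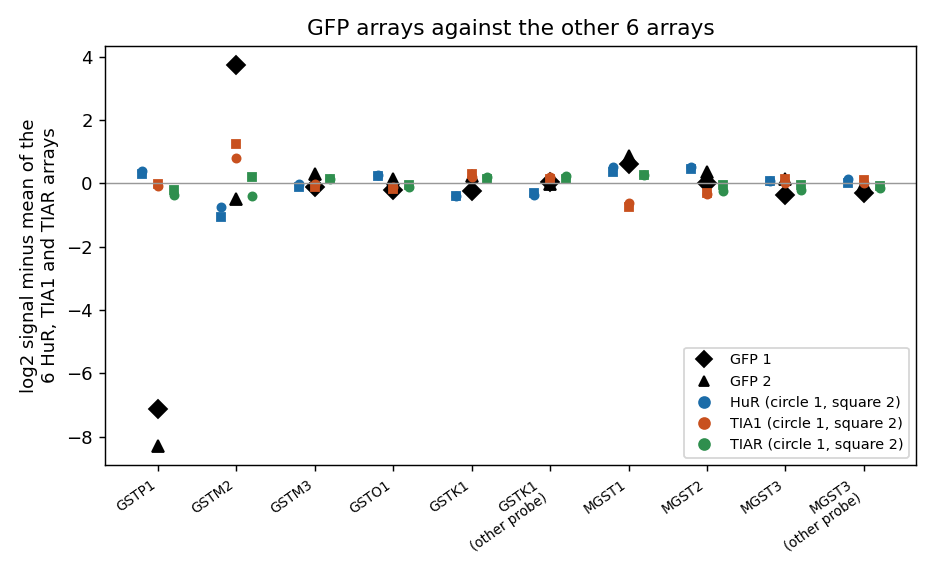
Log2 signal of each array minus the mean of the 6 HuR, TIA1 and TIAR arrays, for the 10 member probes counted. The GFP arrays fall far below for GSTP1, both lie above the other 6 for MGST1, and they disagree for GSTM2.

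MGST1, which detoxifies lipid hydroperoxides and electrophiles at the endoplasmic reticulum and outer mitochondrial membrane, had processed intensities of 16910 and 16765 on the GFP arrays, 15178 and 14694 on HuR, 5652 and 4885 on TIA1, and 11482 and 10703 on TIAR. GFP was highest and TIA1 lowest, and no neighbouring lines in that order overlapped. The GFP mean exceeded HuR by 0.30, TIAR by 0.48 and TIA1 by 1.43 (log2). The largest gap between neighbouring lines, 0.96, was between TIAR and TIA1.

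GSTM2, a cytosolic mu-class enzyme, was not at a stable level in the GFP line. Its leading probe read 439 on GFP 1 and 19.4 on GFP 2, and its second probe 503 and 9.06. Neither probe was well above background on GFP 2. No other member differed so much between replicates, and the first GFP array had the higher background named above. The part of that background in the value was not tested.

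GSTM3 had processed intensities of 17224 and 18921 on the GFP arrays, 17735 and 17822 on HuR, 14630 and 12928 on TIA1, and 17744 and 16776 on TIAR. On the log2 scale this mu-class enzyme, known from brain and testis, lay between 3.40 and 3.82 on all 8 arrays, and its line means were within 0.22 of each other. Each line overlapped with its neighbour in the order of levels. GSTM4 was well above background on none of the 8 arrays, so no fold is given for it.

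GSTO1, an omega-class enzyme with thioltransferase activity, had intensities of 41331 and 42846 in GFP, 55183 and 56821 in HuR, 34539 and 30866 in TIA1, and 37811 and 37290 in TIAR. HuR was highest. On the log2 scale the GFP arrays (4.67 and 5.00) spanned those of TIAR (4.76 and 4.83), while in intensity both GFP arrays lay above both TIAR arrays. GFP minus the other lines was -0.28, 0.12 and 0.04 (log2) for HuR, TIA1 and TIAR.

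GSTK1 had intensities of 19302 and 22370 in GFP, 16638 and 17878 in HuR, 20929 and 20745 in TIA1, and 22437 and 20370 in TIAR. It was lowest in HuR. By its other probe the HuR arrays lay below the rest on the log2 scale, but not in intensity, where HuR 2 read 1670 against 1627 on GFP 2 and 1646 on TIA1 2. By the leading probe, the GFP arrays ran from 3.57 to 4.06 (log2), a range that holds both TIAR arrays.

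MGST2, a membrane enzyme with leukotriene C4 synthase activity, had intensities of 7370 and 7654 in GFP, 10046 and 10210 in HuR, 4520 and 4370 in TIA1, and 5302 and 5648 in TIAR. It was highest in HuR, then GFP, TIAR and TIA1, and no neighbouring lines overlapped. MGST3, a glutathione-dependent peroxidase of the same family, gave 27599 and 31880 in GFP, 35944 and 38065 in HuR, 28200 and 28999 in TIA1, and 26297 and 27415 in TIAR. Every line overlapped with its neighbour on the log2 scale, and by the second probe the line means differed by at most 0.22.

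**Figure D4:**
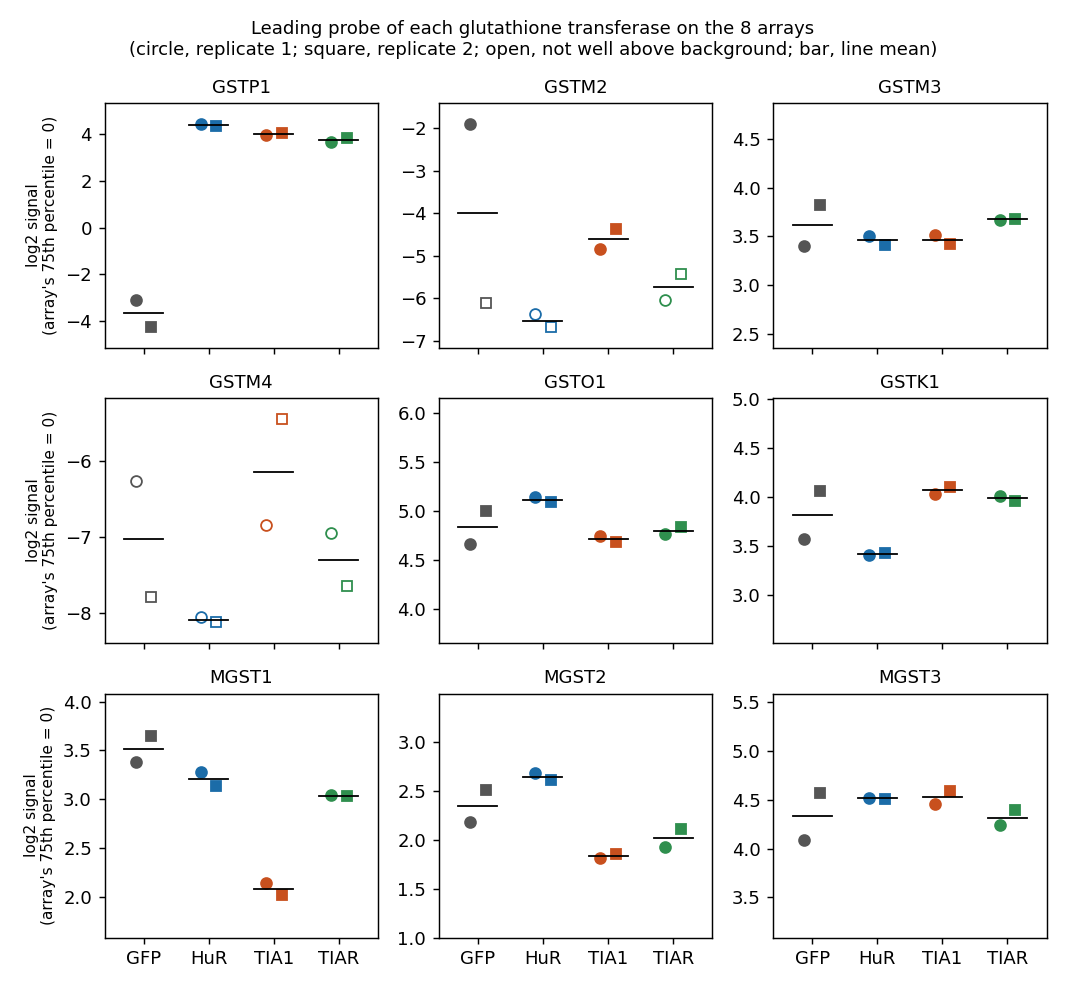
Log2 signal (the array's 75th percentile set to 0) of the leading probe of each gene on the 8 arrays, with circles for replicate 1, squares for replicate 2, open symbols for readings not well above background and bars for line means; the vertical range differs between panels. GSTP1 drops in GFP, MGST1 drops in TIA1, and GSTK1 is lowest in HuR.

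The tests among the lines rich in GSTP1 took in every probe that both arrays of one or the other line read well above background. A probe was called where the lines differed 2-fold or more with an adjusted p below 0.05 (limma, Benjamini-Hochberg over all tested probes). Each group holds 2 arrays of a single line. The p-values rest on the spread between those arrays, which limma moderates by that of all probes tested. TIA1 against HuR gave 2 calls among the 10 member probes tested, where 13.4% of all 28739 probes were called. Of these, 1 was higher (8.5% of all probes) and 1 lower (4.9%). The higher one, GSTM2, entered the test only through its 2 TIA1 arrays, and with a filter on all 4 arrays it was not tested and 1 call remained, MGST1. A further 5 member probes passed the adjusted p without reaching 2-fold, making 7, against 41.5% of all probes, with 3 higher (24.2%) and 4 lower (17.3%). TIAR against HuR gave 0 calls among 9 member probes, where 10.1% of all probes were called (7.06% higher and 3.01% lower). There 5 had an unadjusted p under 0.05 and 4 passed the adjusted p (30.6% of all probes), 2 of them higher (18.1%) and 2 lower (12.6%). TIAR against TIA1 gave 0 calls among 10, where 2.35% of all probes were called (1.24% higher and 1.1% lower). There 2 had an unadjusted p under 0.05 and 1 passed the adjusted p (3.48% of all probes), and it was higher (1.74%, with another 1.74% lower). The median log2 difference of the member probes was -0.18 in TIAR against HuR and -0.03 in TIAR against TIA1, beside 0.05 and -0.02 over all probes. With quantile normalization the share of higher probes among all calls went from 63.4% to 52.9% in TIA1 against HuR and from 70.1% to 56.2% in TIAR against HuR.

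The paired test named in the methods, unadjusted and with the same fold, gave 1 member, MGST1, in TIA1 against HuR. There it called 1954 of all 28739 probes. In TIAR against HuR it gave 0 members and 1341 of 29096 probes. In TIAR against TIA1 it gave 1, GSTM2, and 426 of 28059 probes. GSTM2 entered that test only through the TIA1 arrays, so its call is no support. Without HuR 1, or without HuR 2, only GSTM2 and MGST1 passed the adjusted p in TIA1 against HuR, and no member did in TIAR against HuR. Of the markers of other cells, the summed intensity of the 5 blood genes was 1495 to 1555 in TIA1 against 942 to 991 in HuR, and that of the 5 hepatocyte genes 401 to 439 against 248 to 257. That of the 3 endothelial genes was 170 to 196 against 169 to 259. The 6 fibroblast genes summed to 581 to 725 in TIA1, 899 to 922 in HuR and 1035 to 1338 in TIAR, and LUM and DCN were higher in TIAR than in TIA1 by 1.78 and 1.08 (log2, adjusted p = 0.0343 and 0.0433). Their part in the members' differences was not tested.

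MGST1 fell 2.19-fold in TIA1-expressing cells relative to HuR-expressing cells (log2 -1.13, SE 0.11, adjusted p = 0.00455). It was higher in TIAR than in TIA1 by 0.96 (log2, SE 0.11, adjusted p = 0.0358), and TIAR minus HuR was -0.17 (95% confidence interval -0.45 to 0.11, adjusted p = 0.265). The difference between TIAR and TIA1 lost significance under 7 of 15 alternative settings, among them leaving out any 1 of the 4 arrays. Its size lay between 0.90 and 1.14 throughout. Without the second TIA1 array, whose source label differs, MGST1 was lower in TIA1 than in HuR by 1.07 (adjusted p = 0.0116), and TIAR minus TIA1 was 0.90 (adjusted p = 0.152).

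GSTM2 was at least 2.67-fold higher in TIA1 than in HuR with the processing used here (fitted log2 1.92). This is a bound because neither HuR array was well above background. The probe entered this test only through the TIA1 arrays, where it was high, so its call is no support and no p is given. The bound sets the mean of the brighter line against, for each dim array, the higher of the probe's own reading and the weakest signal still called well above background. With normexp background correction the log2 difference was 0.96, with quantile normalization added 0.60, and 0.62 in the authors' table, each short of 2-fold. The bound thus depends on the processing. The arrays read 45.0 and 58.0 in TIA1, 18.8 and 16.3 in HuR, and 21.3 and 30.3 in TIAR. TIA1 was at least 2.09-fold above TIAR by the same bound, and this did not pass the test (adjusted p = 0.103). The probe entered that test, too, only through the TIA1 arrays. The second GSTM2 probe was well above background on no HuR, TIA1 or TIAR array and was not tested.

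MGST2 and GSTK1 moved in opposite directions. MGST2 was lower in TIA1 by 0.81 (log2, SE 0.09, adjusted p = 0.00639) and in TIAR by 0.63 (SE 0.11, adjusted p = 0.0233), each against HuR. GSTK1 was higher in TIA1 by 0.65 (SE 0.09, adjusted p = 0.0102) and in TIAR by 0.57 (SE 0.09, adjusted p = 0.0187). Its other probe gave 0.50 (adjusted p = 0.018) and 0.52 (adjusted p = 0.0268), so both probes went the same way. Of 15 alternative settings, significance was lost for MGST2 under 3 in TIA1 and 7 in TIAR. For each GSTK1 probe it was lost under 5 in TIA1 and 6 in TIAR.

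GSTO1 was lower in TIA1 than in HuR by 0.40 (log2, SE 0.09, adjusted p = 0.0318), and this was lost in 10 of 15 alternative settings.  GSTM3 and MGST3 passed in no comparison: TIA1 minus HuR was 0.01 for both leading probes, with 95% confidence intervals of -0.26 to 0.27 for GSTM3 and -0.26 to 0.28 for MGST3. GSTM3, MGST3 and GSTO1 differed by 0.22, -0.20 and -0.32 in TIAR against HuR (adjusted p = 0.158, 0.208 and 0.0721).

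**Figure D5:**
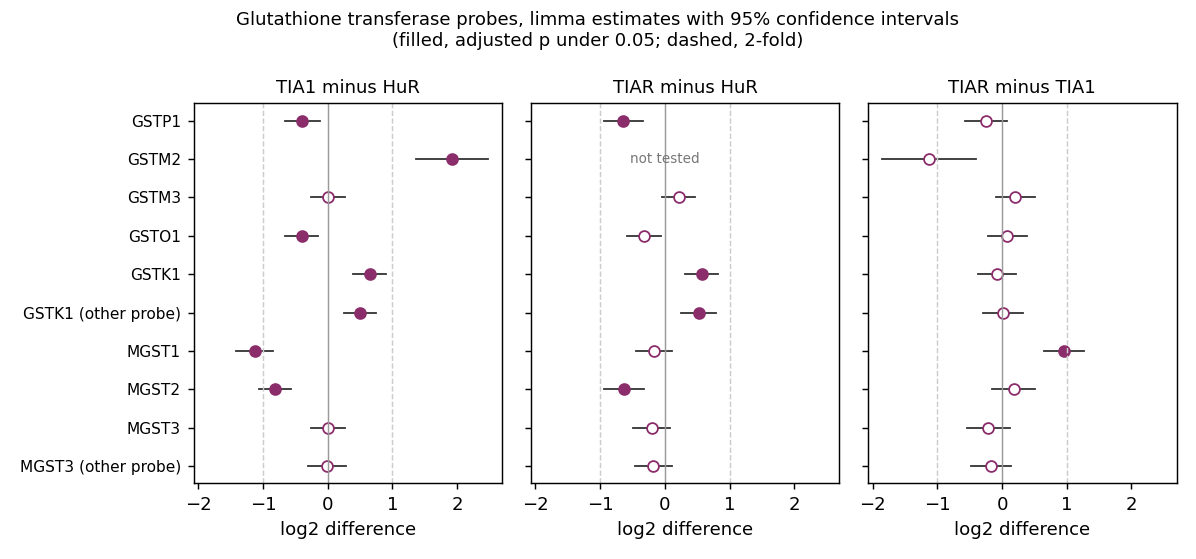
Log2 difference of line means with 95% confidence interval for the member probes tested in the 3 comparisons among HuR, TIA1 and TIAR; filled points have an adjusted p under 0.05 and dashed lines mark 2-fold. MGST1 is low in TIA1 against both other lines, and GSTK1 is high against HuR by both probes.

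The GFP comparisons gave 0 calls over all probes (0% of 28868 against HuR, 0% of 28040 against TIA1 and 0% of 28600 against TIAR, limma), with 4970, 6079 and 4686 probes at an unadjusted p under 0.05. The paired test named in the methods, unadjusted and with a 2-fold change, called 431, 719 and 511 probes. After Benjamini-Hochberg it called 0 in each. The members gave 0 calls by limma, and nothing is read from this, since these contrasts chose GSTP1.

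Other genes of the glutathione system were read from lists, whose counts stand beside 8.5% of all probes called higher and 4.9% lower in TIA1 against HuR, and 7.06% and 3.01% in TIAR against HuR. The list medians below stand beside 0.08 and 0.05 over all probes in these comparisons. Of 16 other glutathione transferases and related genes on the array, 9 were tested in TIA1 against HuR, with 2 called higher, 1 lower and 6 not called (median log2 -0.15). In TIAR against HuR it was 1 higher and 1 lower of 10 (median 0.33). GSTZ1, which isomerises maleylacetoacetate in tyrosine breakdown, was 3.78-fold lower in TIA1 than in HuR (log2 -1.92, adjusted p = 0.0027) and lower by 1.59 in TIAR (adjusted p = 0.00419). Its intensity was 3163 and 3259 in GFP and 3613 and 3669 in HuR, against 700 and 783 in TIA1 and 1052 and 976 in TIAR. LTC4S, the leukotriene C4 synthase, was 6.34-fold higher in TIA1 (adjusted p = 0.00178) and 3.64-fold higher in TIAR (adjusted p = 0.00508). GSTT2 was 2.05-fold higher in TIA1 (adjusted p = 0.00588), and could share signal with its near-identical copy GSTT2B.

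Genes that make and recycle glutathione gave 3 lower calls and 0 higher calls among 14 tested in TIA1 against HuR, and 0 calls in TIAR. SLC7A11, the cystine importer, was lower by 1.88 (log2, adjusted p = 0.00269), CTH, which makes cysteine, by 1.22 (adjusted p = 0.00433), and LAP3, a leucine aminopeptidase, by 1.16 (adjusted p = 0.00453). The list's median log2 difference was -0.28 in TIA1 and -0.27 in TIAR. Of 15 glutathione peroxidases and glutaredoxins tested, 0 were called in TIA1 and 1 in TIAR, where GPX8, an endoplasmic reticulum peroxidase, was lower by 1.10 (adjusted p = 0.00609); the medians were -0.21 and -0.16. Genes that export or process the conjugates gave 1 higher and 2 lower calls among 9 in TIA1. ABCC4 rose by 1.23 (adjusted p = 0.00445), while ABCC1 fell by 1.38 (adjusted p = 0.00811) and ACY1 by 1.07 (adjusted p = 0.0041). In TIAR the genes of this export and processing list gave 0 calls among 9, and the medians were 0.02 in TIA1 and -0.0036 in TIAR.

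Other detoxification enzymes gave 2 higher and 2 lower calls among 21 in TIA1, and 3 higher and 2 lower among 23 in TIAR, with medians of -0.31 and -0.21. AKR1C3, an aldo-keto reductase of steroids, was at least 12.7-fold higher in TIA1 and at least 9.05-fold higher in TIAR than in HuR, where it was not well above background. AKR1C1 was at least 4.55-fold higher in TIAR than in HuR, and the AKR1C genes are near-copies whose probes can share signal. Both entered these tests only through the line where they were high, so their calls are no support and no p is given. AKR1B10 was 3.66-fold higher in TIA1 and 3.04-fold higher in TIAR (adjusted p = 0.00374 and 0.00932). TPMT was lower in TIAR by 1.29 (adjusted p = 0.0211). The other lower calls, named after their values were seen, were ALDH3A2 in TIA1 and EPHX2 in both lines. Between TIAR and TIA1 the lists held 1 call, AKR1C1, higher in TIAR by 1.10, and it entered that test only through the TIAR arrays. Of 20 regulators tested, 2 were higher in each of these comparisons: RARA by 1.68 and 1.57, and MAFF by 1.10 and 1.20 (log2, TIA1 then TIAR), and the medians were 0.14 and 0.05.

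In the GFP line, both arrays of the mu-class genes GSTM1 and GSTM5 lay above the other 6 on the log2 scale, and so did those of GSTCD, a relative named for its transferase-like domain. These were 3 of 10 such genes detected, where 9.83% of all probes did so, and 1 of the 10, LTC4S, lay below on both (10.8% of all probes). Of 16 genes of glutathione synthesis and turnover, 3 lay above (GGT5, GGT7 and GSS) and 1 below (CHAC1). GGT5 met the detection filter only through the GFP arrays, where it was high, so its place above is no support. Of 15 peroxidases and glutaredoxins it was 1 above (GPX3) and 1 below (GPX5). Of 9 genes of conjugate export or processing 1 lay above (ABCG2), and of 23 other detoxification enzymes 1 lay above (CBR3). Of 20 regulators, 0 lay above and 5 below (AHR, FOS, JUN, SP1 and UHRF1). GSTM5 read 575 and 127 on the GFP arrays against 84.9 to 137 elsewhere in intensity, so on that scale the second array lay within the range of the others, and GSTM1 read 682 and 418 against 305 to 517. The log2 signal of GSTM1 was -1.68 on both GFP 2 and TIAR 2, so the second GFP array was level with its nearest neighbour.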

How the data were processed

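The members and the gene lists were chosen with earlier results of these data known. RNA of 8 arrays (SurePrint G3 Human 8x60K v2, 2 per line) was measured. The authors deposited intensity values, the processed signal of Feature Extraction 10.7.3.1, background-subtracted and detrended, with hg19 probe positions. The authors' series table, deposited as log2 values, served as an alternative. Outlier spots were left out, log2 signals were averaged per probe and each array's 75th percentile was subtracted. Limma 3.58.1 in R 4.3.3 with the data.table package (version 1.17.8) tested the probes that both arrays of one of the lines read well above background, on the 4 arrays compared, and was checked on simulated data. Figures used Python 3.11.15 and matplotlib 3.10.9.

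All probes of a member were reported, led by the brightest. For each list up to 4 genes with the largest fold among those called were named, plus GSTZ1, the 5 genes most like GSTP1 and its neighbours. Alternatives were normexp (offset 50), quantile, the authors' table, 2 filters, all 8 arrays in one fit, array weights, a replicate block, the methods' paired t-test and each array left out. The arrays shared 1 slide and 1 scan date, so no block was fitted for them. GFP and TIA1 lay in slide row 1 and HuR and TIAR in row 2, so row and line cannot be told apart in TIA1 against HuR, TIAR against TIA1, GFP against HuR and GFP against TIAR. GFP and TIAR lay in slide columns 1 and 2, and HuR and TIA1 in columns 3 and 4. Column and line thus cannot be told apart in TIAR against HuR, TIAR against TIA1, GFP against HuR and GFP against TIA1. The series calls the arrays of a line independent biological replicates, and 2 arrays per line limit the precision. The part of the slide row or column in any result was not tested.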

Additional observations from a re-analysis of the deposited data

Results flagged for a closer look

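MGST1 is listed because the effects of TIA1 and TIAR, each against HuR, differed: TIAR minus TIA1 was 0.96 (log2, limma adjusted p = 0.0358). Both TIAR arrays lay above both TIA1 arrays, and the difference did not pass when any 1 of the 4 arrays was left out. With 2 arrays per line, a search for outlying arrays within a line was not possible. TIAR and TIA1 lay in different slide rows and columns, which cannot be told apart from the lines.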

How the results depend on the processing

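With 2 arrays per line, precision is the main limit, and low signals such as GSTM2 rest on readings close to background. The direction of GSTP1 held under each scaling run and with any 1 array left out. The GFP minus HuR difference in GSTP1 was -7.19 with normexp and -8.95 with quantile normalization, GFP minus TIA1 was -6.78 and -8.55, and GFP minus TIAR was -6.58 and -8.33. Leaving out 1 array gave -8.64 to -7.46 against HuR, -8.25 to -7.07 against TIA1 and -8.00 to -6.82 against TIAR. Members called in TIA1 against HuR numbered 1 with normexp, with normexp and quantile normalization, with the authors' table, with the stricter filter, with all 8 arrays in one fit and by the methods' paired t-test unadjusted, and 0 by that test after Benjamini-Hochberg, against 2 as reported. MGST1 was the member called where there was 1. TIAR against TIA1 gave 1 with normexp (MGST1), with both steps (MGST1), with the authors' table (MGST1) and by the unadjusted paired t-test (GSTM2), against 0. Leaving out 1 array kept the counts at 2, 0 and 0 in the 3 tested comparisons. The GFP contrasts chose GSTP1, so their counts of members describe the fit and support nothing: GFP against HuR gave 1 (GSTP1) with normexp, all 8 arrays, array weights and the unadjusted paired t-test, GFP against TIA1 gave 1 with normexp and 2 (GSTP1 and MGST1) with all 8 arrays and with array weights, and GFP against TIAR gave 1 with all 8 arrays and with array weights, each against 0. Leaving out 1 array gave 0 to 1, 0 to 3 and 0 to 1, above 0 only without GFP 1 or GFP 2, where the lone GFP array is assumed to vary like the others. Probes separated in GFP numbered 4 with normexp and quantile normalization, against 2, and 2 to 7 with 1 array left out. Small differences that were called in no setting changed sign. MGST3 in TIA1 against HuR was -0.024 with quantile normalization, and its second probe gave 0.02 in TIA1 against HuR, 0.06 in TIAR against HuR and 0.04 in TIAR against TIA1 in the authors' table. MGST1 in TIAR against HuR was 0.013 with normexp and quantile normalization and 0.11 in the authors' table. With 1 array left out, TIA1 minus HuR ran from -0.036 to 0.050 for GSTM3, from -0.060 to 0.073 for MGST3 and from -0.071 to 0.055 for its second probe, and TIAR minus TIA1 ran from -0.038 to 0.070 for the second GSTK1 probe. Over all probes, calls in TIA1 against HuR were 2203 with normexp, 1706 with both steps, 1698 in the authors' table and 1954 by the unadjusted paired t-test, against 3850. In TIAR against HuR they were 1599, 1188, 1265 and 1341 in that order, 1832 with all 8 arrays in one fit, and 774 and 630 without HuR 1 and HuR 2, against 2929. In TIAR against TIA1 they were 286, 301, 316 and 426, then 347 with all 8 arrays, 0 with no filter or with the replicate block, and 0 to 34 with 1 array left out, against 658. In the GFP comparisons they reached 7006 with GFP 2 left out, against 0. After Benjamini-Hochberg the paired t-test called 0 in each. Quantile normalization moved the median of all probes from 0.04 to -0.23 in GFP against HuR, so GSTP1 differences there are to be read against that shift. No block for slide or scan was run, since all arrays share them.

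Deviations of arrays with the same replicate number correlated only at -0.06 to 0.17 between lines. Whether the samples were prepared in pairs cannot be told from this. With the replicate block, members called were 2, 0 and 0 in the tested comparisons and 0 in each with GFP. Member probes past the adjusted p went from 7 to 5, 4 to 0 and, in TIAR against TIA1, 1 to 0 (MGST1, 0.96). The share of all probes past it was not counted, so nothing is read from this.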
